A study of Homo sapiens with 8 samples.

Results

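The genes described here are the 37 genes of the human mitochondrial genome, taken as the rows of the count table whose symbol starts with MT-, of 60230 rows in all. They comprise 13 protein genes, 2 rRNAs (MT-RNR1 and MT-RNR2) and 22 tRNAs. Of these, 15 had counts and all 15 passed the filter on low counts and were tested, whereas the 22 tRNAs, which are 59 to 75 bases long, were at 0 in every library. The tRNAs are not discussed further.

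RNA was sequenced from HepG2 cells, a human liver cancer cell line, in 4 groups with 2 libraries in each. The cells of all 4 groups overexpressed the drug-metabolizing enzyme CYP2C19 and were kept in blasticidin, and no parental HepG2 cells were sequenced. One group received the solvent DMSO, and the other groups received compound 4 (metylcresol in the data), compound 5 (tetrabut) or compound 6 (cyclohexil), each at its own IC50, so that the concentrations differed between compounds. All 3 are bisphenolic antioxidants used in plastics. Compounds 4 and 6 share a methylene bridge and a methyl group on each ring and differ in carrying tert-butyl or cyclohexyl groups, whereas compound 5 has tert-butyl groups only and an ethylidene bridge. In the labels the replicates carry the names day 1 and day 2, while a single treatment time stands in the study's methods. Replicates 1 and 2 are these days, and nothing says that they were separate cultures, so p-values measure the spread between these libraries only.

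Human mitochondrial DNA is a small circle that is transcribed from both strands into long precursor RNAs. The tRNAs lie between most of the other genes, and their excision releases the rRNAs and most mRNAs. Most of the released RNAs then receive short poly(A) tails. The mRNAs code for core subunits of the respiratory complexes I, III and IV and of the ATP synthase, complex V, and the rRNAs build the mitochondrial ribosome that translates them. All other subunits and the factors that transcribe and process mitochondrial RNA are encoded in the nucleus.

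The 37 genes lie between positions 577 and 16023 of chromosome M (GRCh38, positions from GENCODE 29). The table of strands places 28 of them on the plus strand and 9 on the minus strand, namely MT-ND6, a complex I subunit, and 8 tRNAs. Sequences are given below for the longer stretches that neighbouring protein genes share, since reads there cannot be assigned to 1 gene with certainty. MT-ATP6 and MT-CO3 share only 1 base, at chrM:9207, which is not shown. MT-ATP8 and MT-ATP6, both of complex V, share 46 bases at chrM:8527-8572, and MT-ND4L and MT-ND4, both of complex I, share 7 bases at chrM:10760-10766. In these sequences, written 5′ to 3′ on the plus strand, the shared bases are in capitals; the first is the whole of MT-ATP8 (chrM:8366-8572) and the other the last 60 bases of MT-ND4L (chrM:10707-10766).
MT-ATP8: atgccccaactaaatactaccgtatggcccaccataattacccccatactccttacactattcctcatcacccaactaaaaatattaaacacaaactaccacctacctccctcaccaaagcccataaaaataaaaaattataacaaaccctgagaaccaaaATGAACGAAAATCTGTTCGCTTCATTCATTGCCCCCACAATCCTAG
MT-ND4L: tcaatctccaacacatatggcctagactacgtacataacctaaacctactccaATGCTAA

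MT-ND5 and MT-ND6 meet tail to tail, MT-ND5 ending at position 14148 and MT-ND6, read from the minus strand, at 14149. They are shown because MT-ND5 was the only gene past the threshold against DMSO in the fit without a block, and MT-ND6 had the most negative log2-fold changes with compounds 4 and 5. The sequences are the last 60 bases of each gene on its own strand (chrM:14089-14148, plus, and chrM:14149-14208, minus), with the final codon in capitals, which for MT-ND6 is read as a stop in human mitochondria.
MT-ND5: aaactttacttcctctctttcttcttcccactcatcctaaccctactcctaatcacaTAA
MT-ND6: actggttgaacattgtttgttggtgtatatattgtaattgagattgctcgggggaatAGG

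In 6 of the protein genes the annotated sequence ends inside the stop codon, which is completed by the poly(A) tail. The last 30 bases of these are given because they hold the ends at which the poly(A) tail is joined, and the capitals mark the bases of the unfinished codon. The sequences are those of chrM:4233-4262, chrM:5482-5511, chrM:9961-9990, chrM:10375-10404, chrM:12108-12137 and chrM:15858-15887, respectively, all on the plus strand.
MT-ND1: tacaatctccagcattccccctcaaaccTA
MT-ND2: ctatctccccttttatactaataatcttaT
MT-CO3: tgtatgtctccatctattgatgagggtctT
MT-ND3: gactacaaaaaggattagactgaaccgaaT
MT-ND4: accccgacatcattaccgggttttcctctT
MT-CYB: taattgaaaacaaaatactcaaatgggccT

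The libraries held between 9791659 and 17814595 counts, and replicates differed by more than counting noise in every group. All 10 hepatocyte markers were tested, with albumin (ALB) at 14369 to 20660 CPM (counts scaled to the size of the library). Of 4 markers of other lineages, the leukocyte gene PTPRC was at 0 in all libraries, COL1A1 did not exceed 1 count, PECAM1 7 counts and CDH16 17 counts. The overexpressed gene CYP2C19 had 16.4 to 52.8 CPM; it was higher with compound 5 than with DMSO (log2-fold change 1.05, adjusted p = 0.04 in edgeR's quasi-likelihood test). Against DMSO, 4 hepatocyte markers fell with compound 4 (APOA1 −0.90, AFP −0.71, APOB −0.61 and TF −0.52), 1 rose with compound 5 (FGB 0.53), and 0 passed with compound 6, where 9.51%, 8.30% and 0.575% of all genes were called. With the replicate day as a block, AFP was also lower with compound 5 (adjusted p = 0.046 in edgeR), and TF (0.03) and APOA1 (0.044) were lower with compound 6. Their part in the mitochondrial results was not tested.

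To see how much of each transcriptome came from mitochondrial DNA, the counts of the 15 genes were summed and divided by the total of the library. In the DMSO libraries, this share was 7.49% in replicate 1 and 5.86% in replicate 2. The corresponding values were 5.93% and 5.12% with compound 4, 5.66% and 4.69% with compound 5, and 7.77% and 6.89% with compound 6. Replicate 1 was above replicate 2 in all 4 groups, and both compound 5 libraries were below both DMSO libraries, while the other compounds overlapped with DMSO.

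The mean share was 6.68% ± 1.15 (SD, n = 2) in DMSO, 5.52% ± 0.57 with compound 4, 5.17% ± 0.69 with compound 5 and 7.33% ± 0.62 with compound 6. The difference from DMSO was −1.56 percentage points on day 1 and −0.74 on day 2 for compound 4, and −1.83 and −1.17 for compound 5. It was 0.28 and 1.03 for compound 6. The smallest two-sided p that an exact permutation test of 2 against 2 libraries allows is 0.333, so none of these differences can pass the threshold. The compound 5 difference had this smallest value. In bulk RNA, fewer mitochondrial transcripts per cell, more RNA from other genes, and different proportions of cells cannot be told apart. The deepest library, compound 5 replicate 2, had the lowest share, and DMSO replicate 1, which like compound 4 replicate 1 is marked as merged in its label, had the fewest counts. The part of depth was not tested.

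**Figure D1:**
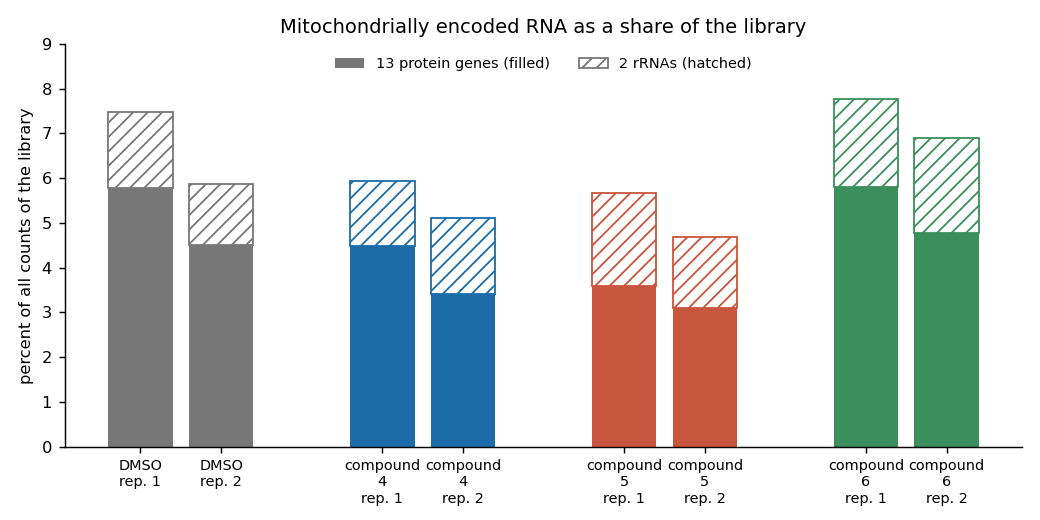
Each bar is 1 library, and its height is the percent of all counts of that library that fell on mitochondrially encoded genes, split into the 13 protein genes (filled) and the 2 rRNAs (hatched). The filled part is 3.09% to 4.48% in the compound 4 and 5 libraries and 4.50% to 5.80% in the DMSO and compound 6 libraries, and the first replicate of each group is the taller.

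The protein genes and the rRNAs differed in this respect. The 13 protein genes took up 5.78% and 4.50% of the DMSO libraries, 4.48% and 3.41% with compound 4, 3.60% and 3.09% with compound 5, and 5.80% and 4.77% with compound 6. Both the compound 4 and the compound 5 libraries were thus below both DMSO libraries, although compound 4 replicate 1 was only just so. The 2 rRNAs took up 1.71% and 1.36% of the DMSO libraries, 1.44% and 1.71% with compound 4, 2.06% and 1.60% with compound 5, and 1.97% and 2.12% with compound 6. Here both compound 6 libraries were above both DMSO libraries.

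The rRNAs made up a larger part of the mitochondrial counts in the treated libraries. They accounted for 22.8% and 23.2% of these counts in DMSO, 24.4% and 33.4% with compound 4, 36.5% and 34.1% with compound 5, and 25.3% and 30.8% with compound 6. All 6 treated libraries were above both DMSO libraries, a comparison inside each library that no scaling between libraries can change. The libraries were made after mRNA isolation, and the part of that step in the rRNA counts was not tested. The ratio of rRNA to protein counts was 0.299 ± 0.005 (SD, n = 2) in DMSO, 0.412 ± 0.126 with compound 4, 0.545 ± 0.041 with compound 5 and 0.392 ± 0.075 with compound 6. For each compound the exact permutation p was 0.333, the smallest possible. In compounds 4 and 6 replicate 2 was well above replicate 1, so the size of their difference was uncertain, whereas with compound 5 the lower replicate (0.517) was far above the higher DMSO replicate (0.302).

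The levels of the genes differed widely within the DMSO libraries. These were made after mRNA isolation, so the order, above all of rRNAs among mRNAs, need not be that of amounts in the cells. Per kilobase of annotated length, MT-CO1, the catalytic subunit of complex IV, was highest at 10779 ± 2198 CPM per kilobase (SD, n = 2), followed by MT-RNR2 (8281 ± 1680), MT-CO3 (8237 ± 1523), MT-CO2 (6909 ± 1512), MT-ND4 (5092 ± 1242) and MT-ATP6 (4923 ± 1034). The ranges of the 2 libraries of neighbours in this order overlapped. A gap without overlap separated them from MT-ND4L (2912 ± 913), which was followed, again with overlaps between neighbours, by MT-ND2, MT-ND1, MT-RNR1, MT-ND3, MT-ATP8, MT-CYB and MT-ND5 (1581 ± 380). MT-ND6 was lowest at 198 ± 87.6 CPM per kilobase, below both libraries of MT-ND5. By summed counts over all libraries, MT-RNR2 was rank 3 and MT-CO1 rank 4 among all genes, whereas MT-ND6 was rank 2659. Levels of the shortest genes, such as MT-ATP8 with 207 bases, may be understated when divided by length.

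**Figure D2:**
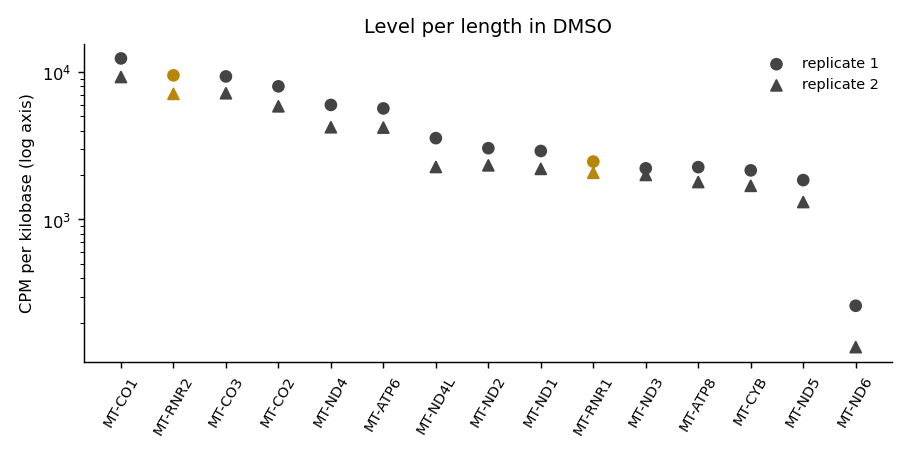
Level of each tested mitochondrial gene in the 2 DMSO libraries, in CPM per kilobase on a log axis, in falling order (circles, replicate 1; triangles, replicate 2; rRNAs in ochre). MT-CO1 is at the top, gaps without overlap follow MT-ATP6 and MT-ND5, and MT-ND6 stands apart at the bottom with 198 CPM per kilobase on average.

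The genes were next compared one by one with edgeR, in a fit over all 13400 tested genes. Of the 15 mitochondrial genes, 0 passed an adjusted p of 0.05 for compound 4 against DMSO, where 9.51% of all genes did. For compound 5, 1 gene passed, with 8.30% of all genes called, and for compound 6, 0 passed, with 0.575% called. The labels name a day for each replicate but state no pairing. Over all tested genes, the differences between the days had correlations between −0.15 and 0.24 across pairs of groups. With the day as a block, 7 genes were lower with compound 4 (12.7% of all genes called in either direction). In the same fit 11 were lower with compound 5 (10.7%) and 0 were called with compound 6 (0.507%). For compound 4 against DMSO, the median standard error of the 13 protein genes was 0.20 on the log2 scale without the block and 0.083 with it. The standard error of MT-RNR1 was 0.24 and 0.21, respectively, and that of MT-RNR2 0.16 and 0.15.

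The libraries of the 2 days differed in the same direction in these genes. Among the 13 protein genes, replicate 1 was above replicate 2 for 13 in DMSO, 13 with compound 4, 12 with compound 5 and 12 with compound 6. The median difference was 0.42, 0.46, 0.30 and 0.33 on the log2 scale, respectively, while the median of all genes, which the scaling keeps near 0, was between −0.01 and 0.01. An unadjusted p under 0.05 in the fit without the block was reached by 4 mitochondrial genes with compound 4 (27.5% of all genes), 11 with compound 5 (28.4%) and 1 with compound 6 (18.6%). The Wald test of DESeq2 called 2 genes with compound 4 (10.9%), 9 with compound 5 (11.4%) and 0 with compound 6 (4.33%).

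**Figure D3:**
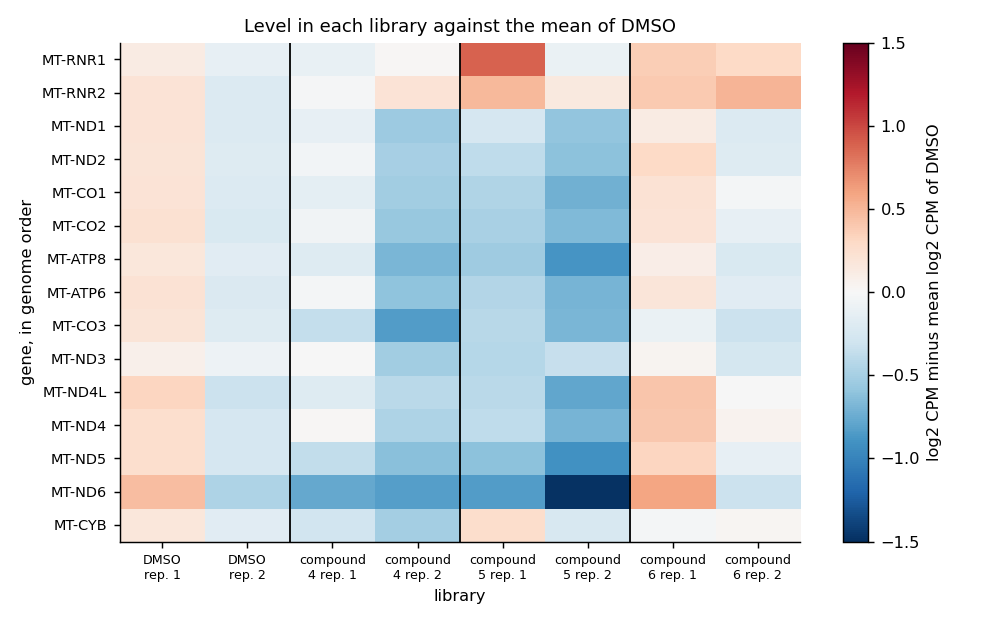
Each cell is the log2 CPM of 1 gene in 1 library minus the mean log2 CPM of that gene in the 2 DMSO libraries, with genes in genome order and libraries by group. The compound 4 and 5 libraries are blue for most protein genes down to −1.48 for MT-ND6, the first replicate of each group is the redder one for most protein genes, and the rRNAs in the first rows of the compound 5 and 6 libraries are mostly red.

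With compound 5 the protein genes were lower throughout, apart from MT-CYB. MT-ND5, a membrane subunit of complex I, had 3351 and 2378 CPM in DMSO and 1844 and 1500 CPM with compound 5. It was the gene that fell past the threshold (log2-fold change −0.78, SE 0.20, 95% interval −1.21 to −0.34, adjusted p = 0.042). The call was lost without any 1 of the 4 libraries compared, with an adjusted p between 0.084 and 0.21. Over all alternatives its adjusted p was between 5.2e-11 and 0.21.

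MT-ND6, the only protein gene on the minus strand, had 137 and 71.7 CPM in DMSO and 55.6 and 35.4 CPM with compound 5. Its log2-fold change was −1.20 (SE 0.35), the most negative of all members. The adjusted p was 0.062 in edgeR's test, 0.015 with the block and 0.1 in DESeq2's Wald test. In compound 4 cells MT-ND6 had 58.2 and 55.7 CPM (log2-fold change −0.87, adjusted p = 0.14, and 0.037 with the block in edgeR, and 0.3 in DESeq2). The part of the mRNA isolation in the counts of MT-ND6 was not tested. The DMSO and compound 6 libraries of MT-ND6, at 149 and 79.4 CPM for the latter, varied more between days than those of any other protein gene in these groups.

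Among the other complex I genes, the log2-fold changes with compound 5 were −0.62 for MT-ND4L, −0.55 for MT-ND4, −0.51 for MT-ND2, −0.42 for MT-ND1 and −0.38 for MT-ND3. MT-ND4 had 8227 and 5807 CPM in DMSO against 5327 and 4257 CPM. With the block, MT-ND4, MT-ND4L, MT-ND2 and MT-ND1 were lower past the threshold, with adjusted p between 0.0073 and 0.016 in edgeR, and MT-ND3 was not (adjusted p = 0.094).

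MT-CYB, the only complex III gene of the mitochondrial genome, had 2455 and 1928 CPM in DMSO and 2623 and 1845 CPM with compound 5. Its libraries overlapped, and the log2-fold change was 0.03 with a 95% interval of −0.36 to 0.41. It therefore made up 6.89% and 5.89% of the mitochondrial protein counts with compound 5, against 4.23% and 4.47% in DMSO, 3.94% and 4.52% with compound 4 and 3.70% and 4.74% with compound 6. This share was singled out after its values were seen and is given without a test.

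The complex IV genes code for the core of cytochrome c oxidase. MT-CO1 had 19018 and 14225 CPM in DMSO and 12036 and 10021 CPM with compound 5 (log2-fold change −0.59, adjusted p = 0.062 in edgeR, 0.0044 with the block). MT-CO2 had a log2-fold change of −0.59 and MT-CO3 of −0.56 in the same comparison, with adjusted p of 0.093 and 0.08 in edgeR, and 0.012 and 0.0083 with the block. Of the complex V genes, MT-ATP8 had 468 and 371 CPM in DMSO and 287 and 226 CPM with compound 5, a log2-fold change of −0.71 (adjusted p = 0.055 in edgeR, 0.0052 with the block), and MT-ATP6 had −0.58 (0.11, and 0.011 with the block). MT-ATP8 shares 46 of its 207 bases with MT-ATP6, so these 2 values are not fully independent.

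In total, 12 of the 15 genes had both compound 5 libraries below both DMSO libraries, where 28.5% of all genes did. The 13 protein genes stood at −0.58 at the median, and 12 of them were lower on both days. The median of all genes, which the scaling keeps near 0, was 0.00. Of all genes, 11.2% had a log2-fold change below the median of the protein genes. The genes come from shared precursor RNAs and the same libraries and are not replicates of each other.

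The rRNAs did not follow. MT-RNR2, the large rRNA, had 14763 and 11058 CPM in DMSO and 17881 and 14169 CPM with compound 5, so that the groups overlapped (log2-fold change 0.31, SE 0.16, adjusted p = 0.22 in edgeR). MT-RNR1, the small rRNA, had 2354 and 1976 CPM in DMSO but 3975 and 2016 CPM with compound 5. The first compound 5 library thus decided its log2-fold change of 0.47 (adjusted p = 0.24 in edgeR), which was 0.76 within day 1 and 0.03 within day 2. The ratio of MT-RNR2 to MT-RNR1 counts was 4.50 in that library and between 5.59 and 7.03 in all others.

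**Figure D4:**
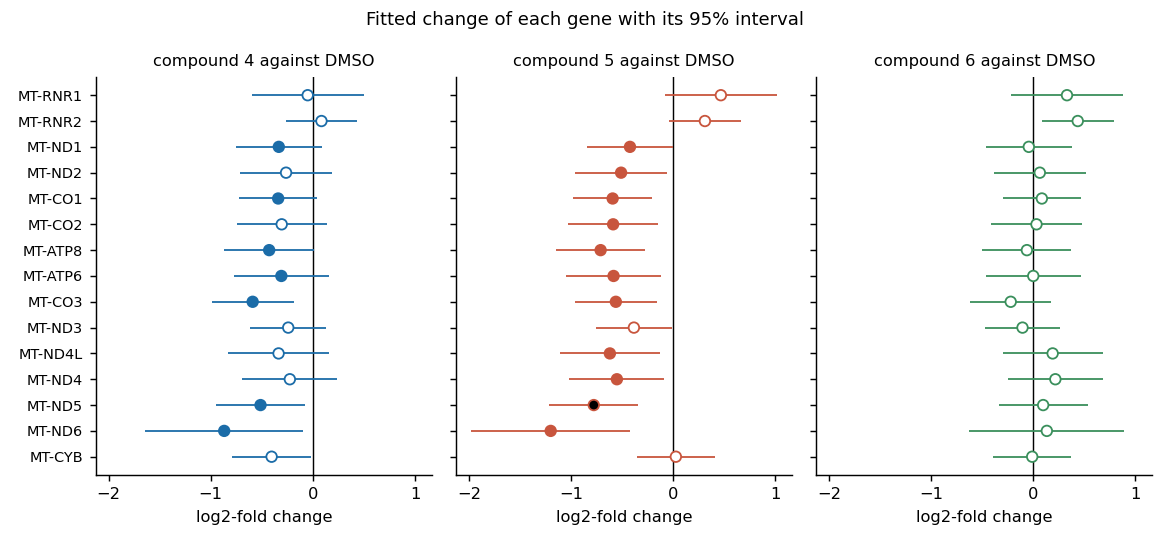
Log2-fold change of each tested mitochondrial gene against DMSO with its 95% interval from edgeR, in genome order from top to bottom, for compounds 4, 5 and 6. The black point passed the threshold without the block (MT-ND5, −0.78), filled points passed only with the day as a block, and open points passed in neither; most protein genes lie left of 0 with compounds 4 and 5 and around 0 with compound 6.

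With compound 4, the 13 protein genes were all lower on both days, with a median log2-fold change of −0.34 against 0.01 for all genes. Of all genes, 17.6% had a log2-fold change below this median of the protein genes. The difference from DMSO was smaller than the spread between replicates for most of the protein genes. Only 5 genes (MT-ATP8, MT-CO3, MT-ND5, MT-ND6 and MT-CYB) had both compound 4 libraries below both DMSO libraries, where 28.0% of all genes did. MT-CO3 was nearest to the threshold. It had 7302 and 5614 CPM in DMSO and 4990 and 3593 CPM with compound 4 (log2-fold change −0.59, SE 0.18, adjusted p = 0.068 in edgeR, 0.0056 with the block).

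With the block, MT-ND1, MT-CO1, MT-ATP8, MT-ATP6, MT-CO3, MT-ND5 and MT-ND6 were lower with compound 4. Their log2-fold changes without it were −0.33, −0.34, −0.43, −0.31, −0.59, −0.51 and −0.87. MT-CYB had −0.40 (adjusted p = 0.16 in edgeR, 0.067 with the block), and MT-ND2, MT-CO2, MT-ND3, MT-ND4L and MT-ND4 had between −0.34 and −0.23 and passed in neither. MT-RNR1 had −0.05 and MT-RNR2 0.08, and both were lower than DMSO on day 1 (−0.23 each) and higher on day 2 (0.14 and 0.42).

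With compound 6, the median of the protein genes was 0.03 against 0.02 for all genes, and their log2-fold changes were between −0.22 (MT-CO3) and 0.22 (MT-ND4). No mitochondrial gene passed with or without the block. The 95% interval for MT-ND5 was −0.34 to 0.53. The rRNAs were the 2 genes with both compound 6 libraries above both DMSO libraries, where 29.3% of all genes were. MT-RNR2 had 16726 and 18191 CPM (log2-fold change 0.44, SE 0.16, adjusted p = 0.18 in edgeR, 0.14 with the block) and MT-RNR1 had 2783 and 2660 CPM (0.33, adjusted p = 0.51 in edgeR).

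The 3 compounds were then compared with each other in 3 pairs, which asks whether bisphenols with different ring substituents left different mitochondrial RNA levels. Doses were the IC50 of each compound, values that the study calls rather comparable, and were therefore not equal. The p-values are adjusted over all genes within each pair.

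Compound 6 was above compound 5 for 12 of the 13 protein genes on both days, and in 12 of the 15 tested genes the libraries did not overlap, where 25.1% of all genes had both compound 6 libraries on top. The median was 0.62 on the log2 scale. In edgeR 0 of the 15 genes passed (1.03% of all genes called), 9 had an unadjusted p under 0.05 (18.5%), 10 were higher with compound 6 with the block (2.01%), and 6 with DESeq2 (3.07%). MT-ND5 had 3527 and 2599 CPM with compound 6 and 1844 and 1500 CPM with compound 5 (log2 difference 0.87, 95% interval 0.44 to 1.31, adjusted p = 0.067 in edgeR, 0.004 with the block). MT-ND6 had 1.33 (adjusted p = 0.094 in edgeR, 0.022 with the block, 0.14 in DESeq2), MT-CYB −0.04, and the rRNAs −0.14 (MT-RNR1) and 0.12 (MT-RNR2).

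Compounds 4 and 6, which differ in tert-butyl or cyclohexyl groups, were not separated by the test. No mitochondrial gene passed in edgeR (0.00% of all genes called), with the block (0.00746%) or with DESeq2 (0.440%), and 6 had an unadjusted p under 0.05 (7.05%). All 15 genes were nevertheless lower with compound 4 on both days, and 9 did so without overlap, where 19.6% of all genes had both compound 4 libraries below. The median of the protein genes was −0.37, and for MT-ND5 the difference was −0.61 with a 95% interval of −1.05 to −0.17 (adjusted p = 0.54 in edgeR).

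Between compounds 4 and 5, 0 of the 15 genes passed in edgeR (0.313% of all genes called), with the block (0.955%) or with DESeq2 (1.57%), and 1 had an unadjusted p under 0.05 (16.2%). This was MT-CYB, which was lower with compound 4, at 1783 and 1530 CPM against 2623 and 1845 CPM (log2 difference −0.43, 95% interval −0.82 to −0.05, adjusted p = 0.27 in edgeR). It was also the only member with both compound 4 libraries below both compound 5 libraries (21.8% of all genes), and MT-ND6 was the only one with both above (22.7%). The median of the protein genes was 0.26, with the 95% interval for MT-ND5 from −0.17 to 0.70. Without compound 4 replicate 1, the median was −0.0045.

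Reads of mitochondrial genes can also be assigned to their copies in the nuclear genome. Of 404 such copies in the table, 19 had at least 1 count, and 86.0% of their counts fell on MTATP6P1, which lies at chr1:633696-634376 and is 98.5% identical to MT-ATP6, with 10 edits over 681 bases. MTND2P28 and MTCO1P12 were 98.2% and 98.6% identical to their mitochondrial genes. The copies together had 0.715% to 0.964% as many counts as the mitochondrial genes. MTATP6P1 had 541 and 471 CPM in DMSO and 370 and 367 CPM with compound 5, a log2-fold change of −0.46 (adjusted p = 0.12 in edgeR), beside −0.58 for MT-ATP6. Whether these reads came from the copy or from MT-ATP6 was not tested.

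The nuclear genes of the same complexes were examined next. Of 75 tested nuclear-encoded subunits of complexes I, III, IV and V, 1 passed with compound 4 and 1 with compound 5, in both cases COX7A2L, a factor of respiratory supercomplexes, which rose by 0.49 and 0.52 on the log2 scale. None passed with compound 6. Of all genes, 9.51%, 8.30% and 0.575% were called with compounds 4, 5 and 6, so the counts for compounds 4 and 5 were below the share over all genes. Their median log2-fold change was −0.11 with compound 4, −0.11 with compound 5 and −0.19 with compound 6, beside −0.34, −0.58 and 0.03 for the mitochondrial protein genes. The 37 nuclear-encoded complex I subunits had medians of −0.11, −0.11 and −0.21, respectively. Of 78 mitochondrial ribosomal proteins, MRPL10 rose (0.46) and MRPL49 fell (−0.50) with compound 4, and 0 passed with compounds 5 and 6, beside the same shares of all genes. The calls of COX7A2L, MRPL10 and MRPL49, like those of CYP2C19 and of the hepatocyte markers without the block, were lost without DMSO replicate 1 and without DMSO replicate 2.

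Finally, 83 nuclear genes were listed that act on mitochondrial DNA or RNA, regulate such genes or serve mitochondrial translation, and all were tested. Against DMSO, 3 passed with compound 4, 8 with compound 5 and 0 with compound 6, where 9.51%, 8.30% and 0.575% of all genes were called. The count was thus below the share over all genes with compound 4 and near it with compound 5, and is no result about the lists. With the block the numbers were 7, 9 and 0, beside 12.7%, 10.7% and 0.507% of all genes. Without DMSO replicate 1 or DMSO replicate 2, 0 passed with compounds 4 and 5, and the same was true of compound 4 without its replicate 2 and of compound 5 without its replicate 1. Without compound 4 replicate 1, 1 passed with compound 4. Among the 16 genes of mitochondrial transcription and its regulators, ESRRA, a nuclear receptor that drives genes of oxidative metabolism, had 62.1 and 58.8 CPM in DMSO and rose to 88.0 and 94.97 CPM with compound 4 and to 91.2 CPM in both libraries with compound 5. Its log2-fold change was 0.60 (adjusted p = 0.011 in edgeR) and 0.59 (0.012), and it was 0.44 (0.079) with compound 6. PPARGC1A, a coactivator of mitochondrial biogenesis, rose with compound 5 from 31.9 and 26.6 CPM to 65.3 and 43.5 CPM (0.89, adjusted p = 0.022 in edgeR), and had 0.64 with compound 4 (adjusted p = 0.058 in edgeR, 0.038 with the block). PPRC1, a related coactivator, rose with compound 5 (0.43). The list's median was −0.05 with compound 4 and −0.01 with compound 5.

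The core transcription factors did not pass. TFAM, which packages mitochondrial DNA and starts its transcription, had 79.2 and 94.4 CPM in DMSO and 68.3 and 68.6 CPM with compound 4 (log2-fold change −0.34, adjusted p = 0.097 in edgeR), and −0.11 with compound 5. POLRMT, the mitochondrial RNA polymerase, had 0.13 with compound 4 and 0.28 with compound 5 (adjusted p = 0.62 and 0.23 in edgeR), and TFB2M, its initiation factor, −0.04 and 0.14. LRPPRC, which stabilizes mitochondrial mRNAs, had 0.13 and 0.14. With compound 6 these 4 genes had −0.24, 0.10, −0.13 and 0.15, in the same order, and none passed.

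Of 16 genes of DNA replication and maintenance, TK2, a mitochondrial thymidine kinase, rose with compound 4 (0.61). MGME1, a nuclease of mitochondrial DNA, fell with compound 5 (−0.58). Without passing, TK2 had −0.06 with compound 5 and 0.53 with compound 6. Likewise, MGME1 had −0.16 with compound 4 and −0.35 with compound 6. Of 20 genes of RNA processing and stability, REXO2, an oligoribonuclease, rose with compound 4 (0.48). PTCD2, a pentatricopeptide repeat protein, fell with compound 5 (−0.87), from 15.3 and 17.2 CPM to 7.66 and 9.96 CPM. Without passing, REXO2 had 0.33 with compound 5 and 0.39 with compound 6. Likewise, PTCD2 had −0.49 with compound 4 and −0.21 with compound 6. Of 17 RNA modification genes, NSUN2 (0.38) and RPUSD4 (0.49) rose and MRM2, which methylates the large rRNA, fell (−0.62) with compound 5. With compounds 4 and 6, in this order, NSUN2 had 0.05 and 0.11, RPUSD4 0.30 and 0.15 and MRM2 −0.46 and −0.33, without passing. None of 15 translation factors passed in edgeR, with 2, 2 and 0 at an unadjusted p under 0.05 for compounds 4, 5 and 6 (27.5%, 28.4% and 18.6% of all genes) and 1, 0 and 0 past the threshold with the block. The medians of these 4 lists were between −0.10 and 0.08 in all comparisons with DMSO.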

How the data were processed

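RNA of 8 samples was sequenced as paired-end directional libraries after mRNA isolation. Reads were quantified by the authors with Salmon 1.5.0 against a GENCODE transcript index on GRCh38 and summarized to genes with tximeta, and the estimated counts were deposited as whole numbers without normalization (Salmon version per the submitters' processing notes). Positions and sequences were taken from GENCODE 29 on GRCh38. No column of other samples was present.

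The count tests were run with edgeR 4.0.16 under R 4.3.3. After TMM scaling, filterByExpr (minimum count 10) left 13400 genes, which went through the quasi-likelihood test with all 8 libraries in a single fit and no block. Benjamini-Hochberg adjustment covered all genes, with a threshold of 0.05. CPM values use TMM, and shares use the plain library totals. Intervals are 95% intervals of the fit. The range of library totals is given in the report. MT-ND6, the lowest of the tested mitochondrial genes, had 620 to 1515 counts per library.

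The pairing of replicates was taken from the day in the labels, which state no pairing. Over 13400 genes, the replicate 2 minus 1 differences of the groups had correlations between −0.15 and 0.24 over 6 pairs of groups, with 3 over 0.1. The labels file the day as a time, whereas the methods give a single time, so the days were taken as replicates.

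As alternatives, the replicate block, DESeq2 1.42.0 (Wald test), only the 4 samples compared, other scalings, no filter and leaving out each library were tried. Scripts were tested on simulated data. The members and gene lists were chosen with earlier results of these data known. Named genes were all mitochondrial genes with counts, members of the nuclear lists past the threshold against DMSO, TFAM, POLRMT, TFB2M, LRPPRC, the 3 nuclear copies with the most counts, and CYP2C19. COX7A2L, MRPL10, MRPL49 and the hepatocyte markers APOA1, AFP, APOB, TF and FGB were named as the members of their lists that passed. ALB and the markers of other lineages were named regardless of the test. Python 3.11.15 (numpy 2.4.6, pandas 2.3.3, matplotlib 3.10.9) was used for tables and plots.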

Additional observations from a re-analysis of the deposited data

How the results depend on the processing

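The number of mitochondrial genes past the threshold depended on the processing more than their direction did. Against the 0 genes called with compound 4, 7 were called with the replicate block, 2 with DESeq2, 1 with library totals alone and 10 without a filter on low counts, and 0 to 1 without single libraries, the 1 being found without compound 4 replicate 1. Against the 1 gene called with compound 5, 11 were called with the replicate block, 9 with DESeq2, 6 with library totals alone, 2 with only the 4 samples compared and 14 without the filter. Leaving out single libraries gave 0 to 2, and 0 without DMSO replicate 1, DMSO replicate 2 or compound 5 replicate 1. Compound 6 against DMSO had 2 genes without the filter. Compound 6 against compound 5 had 10 with the block, 6 with DESeq2, 2 with library totals alone and 11 without the filter. Compound 4 had 3 against compound 5 and 9 against compound 6 without the filter. The causes of these differences were not tested.

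The median of the 13 protein genes was between −0.57 and −0.12 with compound 4 and between −0.78 and −0.36 with compound 5 when single libraries were left out, and between −0.19 and 0.26 with compound 6. Between compounds 4 and 5 it was between −0.0045, without compound 4 replicate 1, and 0.40. Of the 83 listed nuclear genes, 7 were called with compound 4 with the block and 6 without the filter. With compound 5, 3 were called with only the 4 samples compared and 0 to 8 without single libraries, being 0 without DMSO replicate 1, DMSO replicate 2 or compound 5 replicate 1. With compound 6, 1 was called with only the 4 samples compared and 1 without the filter. For the single mitochondrial genes against DMSO, 571 of the recomputed values kept their direction and side of the threshold, 65 passed it newly, 4 no longer passed, all of MT-ND5, and 35 changed sign without passing in either fit. For the 26 other named genes these numbers were 977, 64, 104 and 25. All 21 of their calls were lost without DMSO replicate 1 and likewise without DMSO replicate 2, 11 were lost in at least 1 alternative that kept all libraries, and 0 with the replicate block. None of these recomputed values had the opposite sign where either fit passed the threshold. With other scalings the median of all genes moved by no more than 0.1 on the log2 scale.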
